A study of Mus musculus with 20 samples.

Results

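RNA of the RPE-choroid (the retinal pigment epithelium with the vessel layer behind it) was sequenced from mice that lack *Stra6* and from WT mice, both kept on the vitamin A sufficient diet. All 5 VAS *Stra6-/-* and all 5 VAS WT samples were taken, chosen by the genotype and diet on their labels, which is 10 of the 20 samples of the series. The other 10 came from the same genotypes on a vitamin A deficient (VAD) diet, which held none. They entered the filter on low genes and the shared estimate of the spread, and supply a genotype difference on VAD that stands beside the VAS values for a few genes in the closing section. The question of the comparison is what the loss of *Stra6* alone does to the outer eye when the diet holds enough vitamin A. The mice were raised on standard chow rich in vitamin A until weaning, after which the VAS diet, with 4 IU of vitamin A per g, was fed for 12 weeks. All labels name the strain as C57BL/6. By the methods of the study each sample pooled both eyecups of 1 mouse, which was perfused with buffer under anaesthesia. Muscle, connective tissue, the front of the eye and the vitreous are said to have been taken off, and the retina was peeled away after dispase. The *Stra6-/-* mice were bred in the laboratory's own vivarium on a C57BL/6J background while the WT mice came from the Jackson Laboratory, so genotype and breeding site cannot be told apart.

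STRA6 is the receptor that takes retinol from its carrier in the blood, RBP4, and lets it into the cell. In the eye it sits mainly in the RPE, where LRAT stores the retinol as esters, RPE65 makes the 11-cis chromophore from them, and the chromophore passes to the opsins of rods and cones. Another branch oxidizes retinaldehyde to retinoic acid, the ligand of the nuclear receptors RAR and RXR, which enzymes of the CYP26 family break down again.

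The deposited values are gene counts divided by 1 size factor per library and are called normalized values below. They are not scaled for transcript length, so they compare libraries and not genes. The counts over all genes summed to 16713185 to 21790795 reads per library in the 10 libraries. *Stra6*, on chromosome 9 from 58063788 to 58153996 of GRCm38, had values of 2661, 2742, 2414, 2449 and 2689 in VAS WT and 564, 599, 648, 642 and 694 in VAS *Stra6-/-*. Each *Stra6-/-* library lay below each WT library, with a difference of -2.04 on the log2 scale (SE 0.18, adjusted p = 3.38e-08, limma) and means of 2591 ± 149 in VAS WT and 629 ± 49.8 in VAS *Stra6-/-* (± SD, n = 5, here and below, while SE is the standard error of the fitted difference). The labels give no sex, but the groups were separated by sex-linked transcripts as well. *Xist*, made by the inactive X chromosome of females, averaged 19.96 in VAS WT and 16448 in VAS *Stra6-/-*, and the Y-linked *Ddx3y* was at 1193, 981, 1081, 1190.2 and 1102 in VAS WT against a total of 1 read in the 5 VAS *Stra6-/-* libraries. Sex and genotype therefore cannot be told apart in any result below. The tissue label was met in part. The RPE markers *Rpe65*, *Rlbp1* and *Lrat* were present at means of 4178, 10488 and 1791 in VAS WT, but corneal epithelium genes were present too. The 12 listed took 3.41% of all values in VAS WT and 4.65% in VAS *Stra6-/-*, and 25 RPE genes took 0.862% and 0.823%. The lists differ in size and values are not scaled for length, so these are not shares of tissue. The libraries labelled VAD *Stra6-/-* went against their label in *Stra6*. The list counts below are therefore followed, where they change, by those of a fit that holds the 10 VAS libraries alone (the 10-library fit).

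Of 18807 genes tested, 5010 (26.6%) were called at an adjusted p under 0.05, 2984 (15.9%) with higher and 2026 (10.8%) with lower levels in VAS *Stra6-/-*. Log2 fold changes beyond 2, in either direction, were seen for 207 of them (1.10% of the genes tested), 143 higher and 64 lower. With the 10 VAS libraries alone in the fit, 8444 of 18673 genes (45.2%) were called, 4663 higher and 3781 lower. The spread within a group was smaller there, and most gene lists gained calls. Over 13520 genes with a mean value of at least 50, the median SD of log2 values was 0.144 in VAS WT and 0.11 in VAS *Stra6-/-*. It was 0.332 in VAD WT and 0.151 in the libraries labelled VAD *Stra6-/-*. For 6112 genes (32.5%) the 5 and the 5 libraries did not overlap. The median log2 fold change of all genes was 0.017. This median and the shares of 15.9% higher and 10.8% lower are the background for list counts of the fit over 20 libraries. For list counts of the 10-library fit, the background is 4663 higher and 3781 lower of 18673 genes. The share of 32.5% is the background for genes whose groups did not overlap. The plot of all genes shows where the lists with the largest shifts lie.

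**Figure D1:**
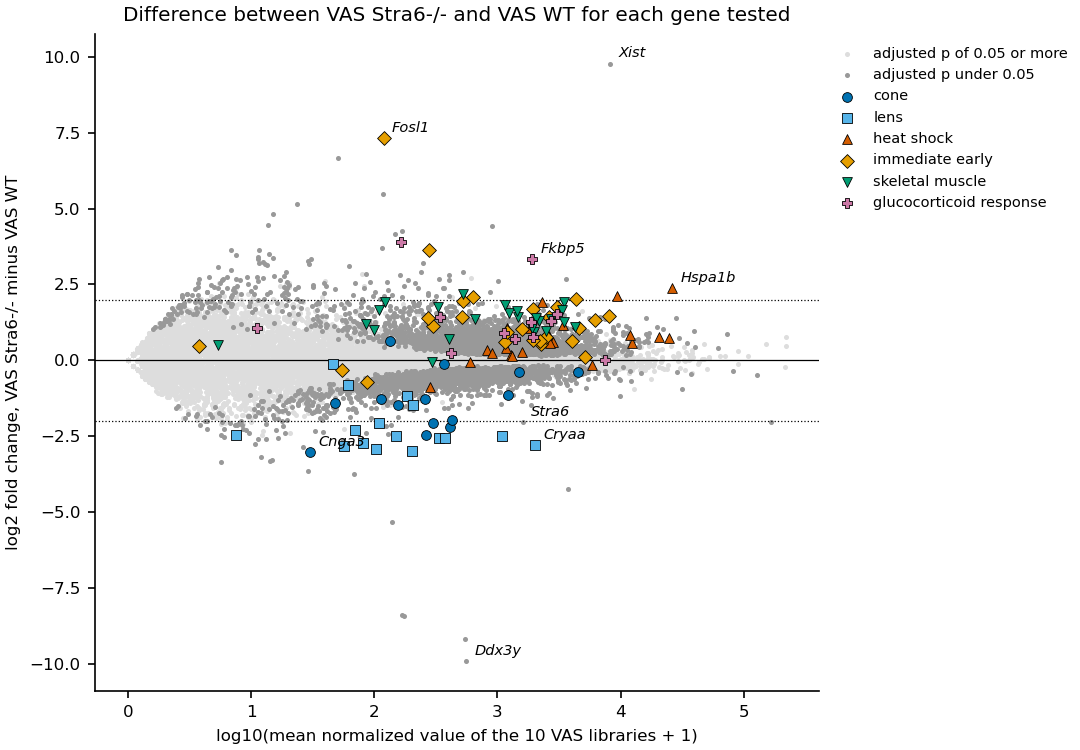
Each point is 1 of the 18807 genes tested, with log10 of the mean normalized value of the 10 VAS libraries plus 1 on the horizontal axis and the log2 fold change on the vertical axis. The dotted lines mark log2 fold changes of 2 and -2. Cone and lens genes lie mostly below 0, and heat shock, immediate early, muscle and glucocorticoid response genes mostly above it.

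Outside *Stra6* itself, the steepest change among genes of retinoid handling was in *Cyp26a1*, the enzyme that clears retinoic acid and is itself induced by it. Its normalized values were 236, 205, 172, 196 and 203 in VAS WT and 54.9, 42.8, 55.9, 55.7 and 21.5 in VAS *Stra6-/-*. The groups did not overlap and the means differed 4.38-fold, with a difference of -2.18 on the log2 scale (SE 0.55, adjusted p = 0.00502, limma). The gene for the retinaldehyde dehydrogenase *Aldh1a3*, which makes retinoic acid, went the other way, from 1713 to 3144 (0.88, adjusted p = 8.47e-07). Of the receptors, *Rxra* rose from 1904 to 2689 (0.50) and *Rarg* from 3495 to 4717 (0.43). The other receptors did not pass the test, *Rarb* standing at 356 and 329.8. In all, 16 genes of retinoic acid synthesis, breakdown and reception gave 3 higher and 1 lower calls (4 higher and 3 lower in the 10-library fit).

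The promoters of *Cyp26a1* and *Rarb* are set side by side because both hold the direct repeat with a spacing of 5 bases that retinoic acid receptors are known to bind, while the test called *Cyp26a1* and not *Rarb*. This repeat was found within 250 bases before to 50 bases after the start of 11 of 14012 tested genes (0.0785%), on either strand. Among the 7 of 12 listed retinoic acid targets with a promoter in the table it was found in these 2, a search that was made after the values had been seen. The capitals mark the repeat in the 150 bases before each start, taken from RefSeq on GRCm38.p6 (chr19:37697658-37697807, plus strand, and chr14:16575477-16575626, minus strand).
Cyp26a1: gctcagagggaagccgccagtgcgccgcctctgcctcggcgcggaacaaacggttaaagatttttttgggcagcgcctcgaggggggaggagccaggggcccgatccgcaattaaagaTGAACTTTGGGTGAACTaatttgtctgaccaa
Rarb: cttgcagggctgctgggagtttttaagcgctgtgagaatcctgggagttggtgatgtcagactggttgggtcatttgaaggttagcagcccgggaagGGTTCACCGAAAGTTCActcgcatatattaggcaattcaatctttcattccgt
Of the 10 listed retinoic acid targets tested, 2 were called higher and 4 lower (3 higher and 4 lower in the 10-library fit), *Cyp26a1*, *Stra6* and *Dhrs3* among the latter. *Nrip1*, a corepressor of nuclear receptors, was 119 and 599 (2.38, adjusted p = 0.000238), and *Tgm2* was the other gene called higher.

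Among 15 genes of retinol uptake and binding, 3 were called higher and 4 lower, *Stra6* included (5 higher and 5 lower in the 10-library fit). *Crabp1*, which binds retinoic acid, went from 114 to 55.5 (-1.06). On values corrected for transcript length it was not called (adjusted p = 0.065), nor was the lipoprotein receptor *Lrp1* (0.078), which was higher before. *Rbp7*, which binds retinol, was called higher with overlapping groups (9.03 and 19.5, 1.23). Lipoprotein lipase, *Lpl*, which frees fatty acids and retinyl esters from lipoproteins, was lower (from 986 to 735). The second retinol-binding protein receptor, *Stra6l*, was at 41.5 and 30.2 and the scavenger receptor *Scarb1* at 1103 and 1118, neither past the test.

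In the retinoid cycle, 5 of 14 genes were called lower and none higher by limma. The largest of the 5 differences was in *Rdh5*, the 11-cis retinol dehydrogenase of the RPE, with values of 10542, 10261, 10361, 8958 and 10216 in VAS WT and 7661, 7275, 7174, 7869.6 and 7323 in VAS *Stra6-/-* (-0.43, adjusted p = 0.000448). *Rdh12* (-0.42) and *Abca4* (-0.38), which act on all-trans retinaldehyde in photoreceptors, and *Rrh* and *Dhrs3* were the others. On values corrected for transcript length only *Abca4* of the 5 remained called, with adjusted p = 0.14 for *Rdh5* and adjusted p = 0.0696 for *Rdh12*. *Rpe65* and *Lrat*, the isomerase and the esterifying enzyme, were at 4178 ± 271 in VAS WT and 5824 ± 144 in VAS *Stra6-/-* and at 1791 ± 133 in VAS WT and 2561 ± 122 in VAS *Stra6-/-*. In both genes all 5 *Stra6-/-* libraries lay above all 5 WT libraries, but with the spread of all 20 libraries neither passed (adjusted p = 0.16 and adjusted p = 0.114). In the 10-library fit, 4 of the 14 genes were called higher, *Rpe65* (adjusted p = 1.42e-08) and *Lrat* (adjusted p = 7.35e-08) among them, and the same number lower as before. The plot of retinoid genes gives each gene's difference with its standard error.

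**Figure D2:**
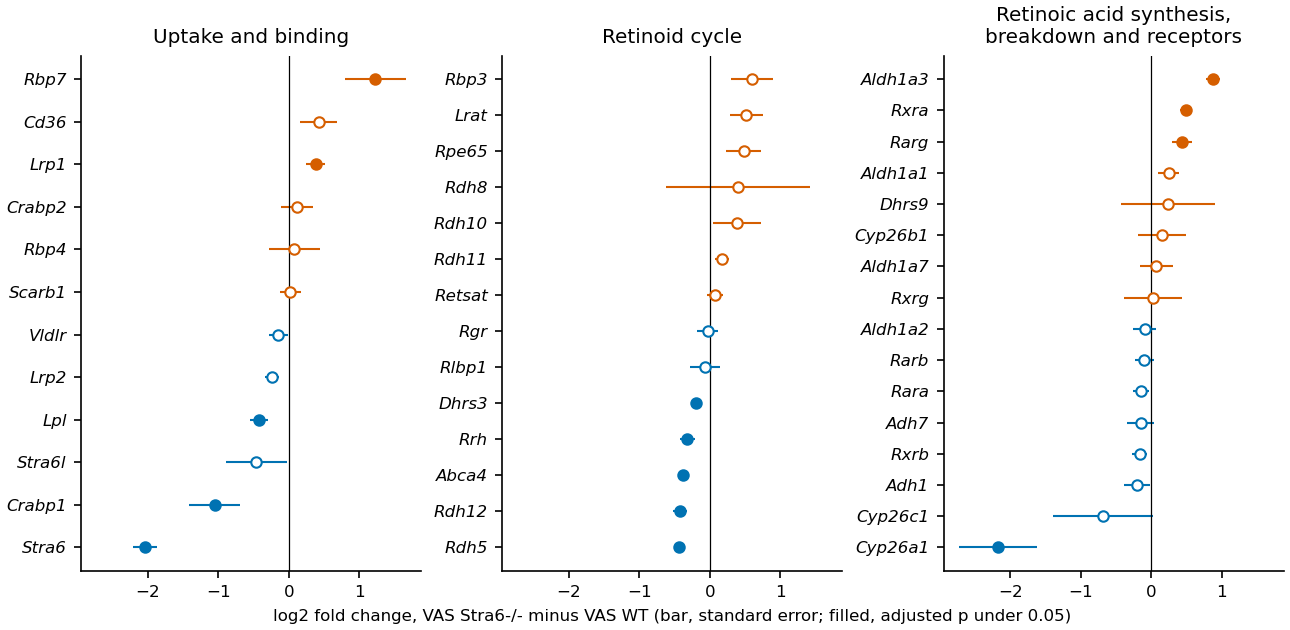
Points are log2 fold changes of VAS *Stra6-/-* minus VAS WT with their standard errors for genes of retinol uptake and binding, of the retinoid cycle and of retinoic acid metabolism and reception, with a few listed genes not drawn. Filled points passed the test; *Stra6* at -2.04 and *Cyp26a1* at -2.18 stand furthest below 0 in their panels, and all filled points of the retinoid cycle lie between -0.43 and -0.20.

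Cone genes were lower as a group. Of 14 tested, 12 were called lower and none higher (1 higher and 12 lower in the 10-library fit), with a median log2 fold change of -1.34. *Opn1sw*, the short-wave cone opsin, had values of 658, 611, 671, 612 and 804 in VAS WT and 142, 135, 165, 130.1 and 156 in VAS *Stra6-/-*, 4.61-fold lower with a difference of -2.19 on the log2 scale (SE 0.35, adjusted p = 6.64e-05, limma). *Arr3*, the cone arrestin that shuts the activated opsin off, had 451, 389, 406, 470.2 and 512 in VAS WT and 72.1, 81.2, 86.4, 92.9 and 71.2 in VAS *Stra6-/-*, with a difference of -2.45 on the log2 scale (SE 0.49, adjusted p = 0.000759, limma). *Pde6h*, the inhibitory subunit of the cone phosphodiesterase, had 469, 447, 493, 471 and 511 in VAS WT and 118, 112, 109.8, 112 and 115 in VAS *Stra6-/-*, and its log2 fold change was -2.07 (adjusted p = 4.1e-06). In these 3 genes the WT and the *Stra6-/-* libraries were far apart, with every *Stra6-/-* library well below the lowest WT library.
*Cnga3*, the channel subunit that closes in light, rested on fewer reads than these genes, with values of 62.8, 16.3, 34.04, 66.3 and 81.2 in VAS WT and 3.05, 16.5, 7.12, 4.22 and 0.937 in VAS *Stra6-/-*. Replicate 2 of VAS *Stra6-/-* lay just above replicate 2 of VAS WT, so the groups overlapped, and the log2 fold change was -3.04 (standard error 0.55, adjusted p = 0.000276). The cone transducin *Gnat2* (-1.97, adjusted p = 2.65e-10), the medium-wave opsin *Opn1mw* (-1.48), the second channel subunit *Cngb3* (-1.42), the catalytic phosphodiesterase *Pde6c* (-1.27) and the transducin subunits *Gnb3* (-1.15) and *Gngt2* (-1.27) were lower as well. *Guca1a* and *Kcnv2*, which rods use too, differed least of the 12 (-0.38 and -0.37), and *Guca1a* was not called once transcript length was corrected for (adjusted p = 0.533). *Thrb* (-0.13) and *Slc24a2* (0.63) were not called. In bulk tissue fewer cones and less RNA per cone cannot be told apart.

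Rod genes did not move in the same way. Of 20 tested, 3 were called lower, *Cnga1* (-0.58, adjusted p = 1.07e-05), *Gngt1* (-0.49) and *Cngb1* (-0.35), none was called higher, and the median was 0.044. The rod transducin *Gnat1* was at 34841 ± 1654 in VAS WT and 41458 ± 2348 in VAS *Stra6-/-* (0.25, adjusted p = 0.42) and the rod arrestin *Sag* at 13198 ± 735 in VAS WT and 14135 ± 459.8 in VAS *Stra6-/-* (0.10, adjusted p = 0.788). The summed level of the 20 rod genes ranged from 171713 to 197047 in VAS WT and from 192756 to 205466 in VAS *Stra6-/-*, ranges that overlap, while the sums of the 14 cone genes did not overlap (11415 to 13172 against 6962 to 7543). In the 10-library fit, 5 rod genes were called higher and 7 lower.
Of 22 genes of inner retinal neurons and Müller glia, 7 were called lower and 1 higher (4 higher and 11 lower in the 10-library fit). The lower ones included *Grm6*, the glutamate receptor of ON bipolar cells (from 829 to 431, -0.94), *Calb1* (-0.88) and the Müller water channel *Aqp4* (-0.62). The glutamine synthetase gene *Glul*, strong in Müller glia but not restricted to them, was higher (from 22229 to 37095, 0.74).

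**Figure D3:**
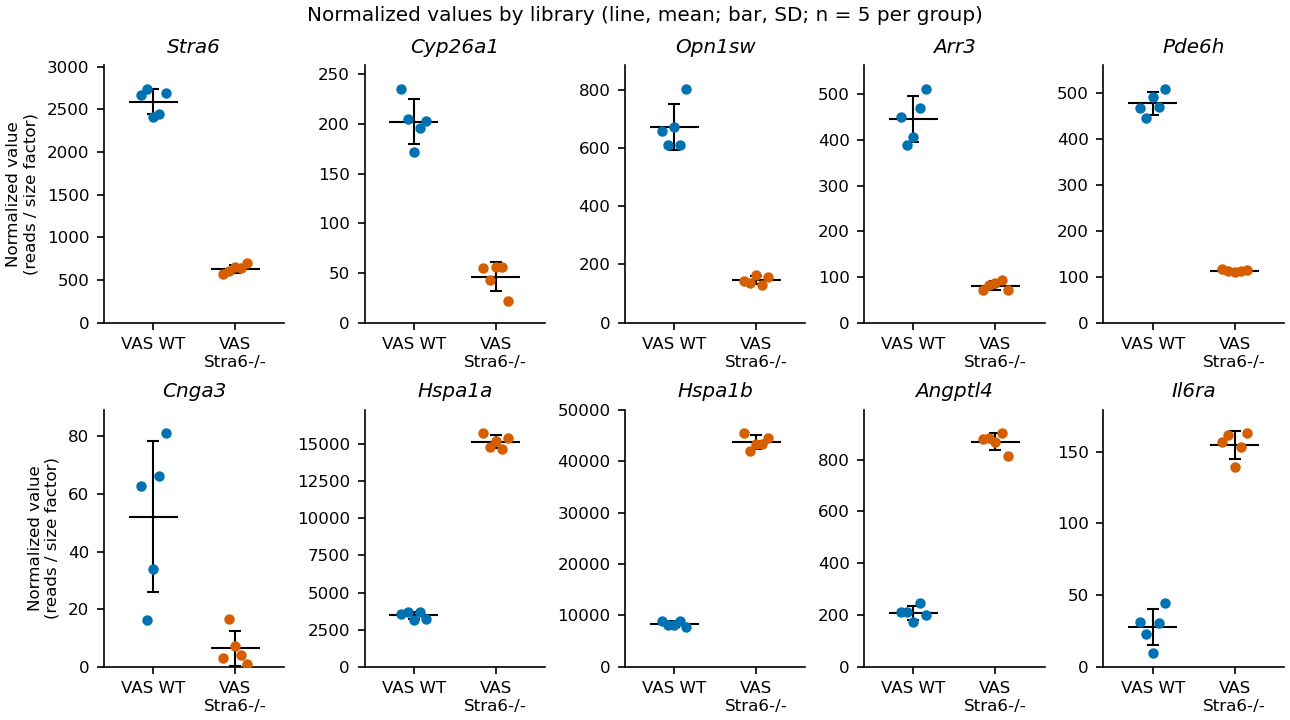
Each point is the normalized value of 1 library on a linear axis from 0, for *Stra6*, *Cyp26a1*, 4 cone genes and 4 genes that were higher in VAS *Stra6-/-*. Lines are means and bars SDs of 5 libraries, and the groups overlap in *Cnga3* alone of the 10 genes plotted.

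Lens genes, which belong to another tissue than the RPE-choroid, were lower as well. Of 16 tested, 14 were called lower (15 in the 10-library fit) and none higher, with a median log2 fold change of -2.48. All 11 crystallins in the list were called, between -2.05 for *Crybb3* and -2.98 for *Cryba2*. *Cryaa*, the lens chaperone alpha A crystallin, had values of 3609.8, 3607, 3591, 3217 and 3699 in VAS WT and 549.5, 510.3, 499, 456 and 541 in VAS *Stra6-/-*. Every WT library held more *Cryaa* than every *Stra6-/-* library, 6.93-fold in the means (-2.79, adjusted p = 1.36e-06). The fibre-cell filament genes *Bfsp1* (-1.19) and *Bfsp2* (-1.46) followed, and the fibre membrane genes *Mip* (47.8 against 42.8) and *Lim2* (76.4 against 42.9) did not pass the test. The sum of the 16 genes was 7641 to 9354 in VAS WT and 1489.8 to 1682 in VAS *Stra6-/-*. Crystallins are also made in the retina, and the methods name the removal of the front of the eye. The part of carried-over lens in this difference was not tested.

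Heat shock genes were higher. Of 23 tested, 16 were called higher and 1 lower (19 higher and 2 lower in the 10-library fit), with a median of 0.59. The inducible HSP70 genes *Hspa1a* and *Hspa1b*, neighbours on chromosome 17, moved most. *Hspa1b* had values of 8843, 8151, 8130.4, 8967 and 7718 in VAS WT and 45557, 42087, 43342, 43398 and 44525 in VAS *Stra6-/-*, a 5.24-fold difference with a difference of 2.39 on the log2 scale (SE 0.089, adjusted p = 8.67e-14, limma). *Hspa1a* had 3572, 3659, 3138, 3704 and 3213 in VAS WT and 15749, 14783, 15208, 14644 and 15398 in VAS *Stra6-/-*, with a difference of 2.13 on the log2 scale (SE 0.065, adjusted p = 5.21e-15, limma). The libraries of a group lay within a narrow band, and the groups were far apart in both genes. Since the coding sequences of the pair are nearly the same, reads may have been shared between them, and their single values are less certain than the direction of the pair.
Their cochaperones rose with them: *Hsph1*, a nucleotide exchange factor of HSP70, went from 955 to 3626 (1.92, adjusted p = 4.81e-10), the J-protein *Dnajb1* from 1369 to 4791 (1.81), *Dnaja1* from 2087 to 4699 and *Bag3* from 1199 to 2498. The constitutive *Hspa8* (0.74), the HSP90 genes *Hsp90ab1* (0.77) and *Hsp90aa1* (0.57), the mitochondrial chaperonin *Hspd1* (0.82) and the small heat shock protein *Hspb1* (0.83) rose by less. The transcription factor *Hsf1*, which drives these genes after its activation as a protein, was at 613 and 592 (adjusted p = 0.728), and *Hsf2* was lower (from 369 to 198, -0.88).

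The promoters of 4 genes of this group are shown because they carry the paired units that heat shock factors bind. The capitals mark GAANNTTC or TTCNNGAA, each of which reads the same on both strands, in the 150 bases before the start (RefSeq, GRCm38.p6). The places are chr17:34972157-34972306 (minus strand) for *Hspa1a*, chr17:34959239-34959388 (minus) for *Hspa1b*, chr5:149636316-149636465 (minus) for *Hsph1* and chr5:135887769-135887918 (plus) for *Hspb1*.
Hspa1a: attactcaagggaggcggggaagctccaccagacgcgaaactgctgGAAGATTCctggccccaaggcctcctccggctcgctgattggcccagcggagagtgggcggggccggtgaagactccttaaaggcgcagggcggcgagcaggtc
Hspa1b: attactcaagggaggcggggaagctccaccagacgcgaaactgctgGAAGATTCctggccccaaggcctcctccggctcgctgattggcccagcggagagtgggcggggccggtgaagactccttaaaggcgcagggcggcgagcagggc
Hsph1: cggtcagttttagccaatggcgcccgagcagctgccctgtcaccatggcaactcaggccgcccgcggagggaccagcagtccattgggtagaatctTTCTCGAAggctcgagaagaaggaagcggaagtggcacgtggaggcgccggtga
Hspb1: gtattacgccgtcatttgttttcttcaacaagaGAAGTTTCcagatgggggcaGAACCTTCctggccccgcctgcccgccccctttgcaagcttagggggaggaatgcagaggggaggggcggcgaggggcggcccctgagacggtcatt
The *Hspa1a* and *Hspa1b* promoters differed at 1 of these 150 bases. Over the whole window, from 250 bases before to 50 after a start, 11 of the 18 heat shock genes with a promoter in the table held at least 1 of the 2 patterns (61.1%), against 2060 of 14012 tested genes (14.7%). Among genes called higher with a log2 fold change above 1 the share was 15.3%, and among genes called lower beyond -1 it was 15.5%. The AP-1 site TGANTCA, searched on both strands, was in 7.29% of all promoters, in 10.8% of those of genes higher by more than 1 and in 6.64% of those lower by more than 1. These letter matches are descriptions and do not show that a site is used.

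Immediate early genes, which cells switch on within minutes of a stimulus, gave 19 calls higher and none lower out of 26 (22 higher and 1 lower in the 10-library fit), with a median of 1.11. The AP-1 subunit gene *Fosl1* had 222, 237, 240.0, 215 and 256 in VAS *Stra6-/-*, while in VAS WT it had 5.89 in replicate 1 and 0 in the other 4 libraries. Its log2 fold change of 7.32 (adjusted p = 9.26e-07) therefore depends on the pseudocount and was 5.63 with a pseudocount of 4. *Jun* had 1827, 1795, 1647, 1745 and 1578 in VAS WT and 6666, 6591, 7356, 7054 and 6988 in VAS *Stra6-/-* (2.01, adjusted p = 6.75e-06), *Fos* rose from 923 to 2963 (1.68) and *Fosb* from 245 to 1020.0 (2.07), so that 6 of 7 AP-1 subunit genes were called higher and *Jund* (0.11) was not. *Arc*, known from neurons, went from 40.4 to 513 (3.64), *Atf3* from 214 to 834 (1.96), the phosphatase gene *Dusp1* from 1389.8 to 4685 (1.75) and *Klf4* from 4300.1 to 11790.1 (1.46). None of the 4 *Egr* genes was called, with *Egr1* at 3142 and 4901 (0.64, adjusted p = 0.274) and *Egr3* at 109 and 62.5 (-0.72), though both were in the 10-library fit.

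Targets of the glucocorticoid receptor were higher in 8 of 12 cases and lower in none (10 and none in the 10-library fit), with a median of 1.16. *Fkbp5*, which dampens the receptor in turn, had values of 349, 424, 319, 368 and 276 in VAS WT and 3426, 3435, 3088, 3708 and 3749 in VAS *Stra6-/-*, a 10.03-fold difference (3.33, adjusted p = 1.51e-06). *Zbtb16* rose from 23.1 to 302 (3.91), the X-linked *Tsc22d3* from 1593 to 4540.3 (1.51) and the cell cycle inhibitor *Cdkn1a* from 1601 to 3886 (1.28). *Sgk1*, another classical target, was at 7425 and 7519 (0.018, adjusted p = 0.932), with overlapping groups. *Per1*, which belongs to this list and to the clock, was 1449.5 and 2443 (0.76, adjusted p = 0.0178).
Of 19 clock genes 9 were called higher and 2 lower (14 higher and 2 lower in the 10-library fit). The repressors *Cry1* (from 297 to 675, 1.18) and *Per2* (from 707 to 1596, 1.17) were higher, and the activators *Arntl* (from 642 to 409, -0.66) and *Npas2* (-0.75) lower, while *Nr1d1* (0.092) and *Dbp* (0.15) did not pass. The hour of tissue collection is not given in the sources used here.

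The other stress lists moved less. Of 16 genes of the unfolded protein response 7 were called higher and 1 lower (8 higher and 2 lower in the 10-library fit, median 0.12), led by *Dnajb9* (1.29) and the stress translation factor *Atf4* (from 3616 to 7040.4, 0.96), while the death-linked factor *Ddit3* was lower (-0.29, and adjusted p = 0.767 once corrected for length). Of 23 NRF2 and antioxidant genes 9 were called higher and 2 lower (13 higher and 4 lower in the 10-library fit, median 0.18). Heme oxygenase, *Hmox1*, went from 199.7 to 506 (1.34), *Osgin1* from 508 to 1109.6 (1.14), the glutathione synthesis gene *Gclc* from 747 to 1388 (0.89) and the metallothionein *Mt2* from 5906 to 11392 (0.95). *Nqo1*, an often used NRF2 target, was at 819 and 996 (adjusted p = 0.111), and the glutathione peroxidase *Gpx4* and the superoxide dismutase *Sod1* were the 2 lower genes (-0.42 and -0.28), neither of them called once corrected for length (adjusted p = 0.0812 and adjusted p = 0.887).

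Of 25 PPAR targets and genes of fatty acid oxidation, 10 were called higher and 1 lower (15 higher and 2 lower in the 10-library fit), with a median of 0.33. *Angptl4*, an inhibitor of lipoprotein lipase that PPARs and glucocorticoids induce, had 211, 210.5, 174, 248 and 198 in VAS WT and 878, 881, 868, 903 and 813 in VAS *Stra6-/-*, a 4.17-fold difference with a difference of 2.06 on the log2 scale (SE 0.19, adjusted p = 9.83e-08, limma). The mitochondrial carrier *Ucp3* (from 55.7 to 289, 2.44), the pyruvate dehydrogenase kinase *Pdk4* (from 72.8 to 378, 2.39) and the lipid droplet genes *Plin5* (from 3.71 to 13.98, 1.92) and *Plin4* (from 222 to 625, 1.49) were higher too. The enzymes of beta oxidation did not follow as a group: *Acadm* (-0.14), *Acadl* (0.05) and *Hadha* (0.14) were not called, and *Acadvl* was slightly lower (-0.20).
Sterol and fatty acid synthesis genes were higher in 14 of 18 cases and lower in 1 (16 higher and 1 lower in the 10-library fit), with a median of 0.53. *Cyp51*, which demethylates lanosterol, had 2336, 2131, 2359.7, 2493 and 2046 in VAS WT and 4068, 4254, 4165, 3986 and 4251 in VAS *Stra6-/-* (0.87, adjusted p = 1.52e-05), and the fatty acid synthase gene *Fasn* was higher by 0.83 (adjusted p = 1.05e-08). *Srebf2*, the regulator of the sterol branch, was higher (0.83) and *Srebf1*, that of the fatty acid branch, was the 1 lower gene (-0.28).

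*Il6ra*, the ligand-binding chain of the interleukin-6 receptor, had values of 31.4, 23.1, 9.73, 30.2 and 44.6 in VAS WT and 156, 161, 139, 153 and 163 in VAS *Stra6-/-*. All *Stra6-/-* libraries were above all WT libraries, 5.56-fold in the means, with a difference of 2.58 on the log2 scale (SE 0.36, adjusted p = 1.63e-05, limma). The shared chain *Il6st* (0.58, adjusted p = 0.0015), the kinases *Jak1* (0.58) and *Jak2* (0.76), the factor *Stat3* (from 1970.5 to 4089, 1.05) and its feedback inhibitor *Socs3* (from 206 to 687, 1.76) were higher too, as was the chemokine gene *Cxcl1* (from 40.1 to 137, 1.77). Of 20 genes of this list 10 were called higher and none lower (14 and none in the 10-library fit). The ligand *Il6* was barely detected, with 0, 0, 0, 0 and 12.5 in VAS WT and 10.2, 14.3, 27.5, 4.22 and 0 in VAS *Stra6-/-*, overlapping groups and adjusted p = 0.0584. Among 11 genes that photoreceptor or Müller cell stress is known to raise, 7 were called higher and none lower (7 higher and 1 lower in the 10-library fit). *Bcl3* rose most (from 304 to 1444, 2.25), followed by the growth factor gene *Fgf2* (from 0.393 to 5.02, 2.16), *Socs3* and *Cebpd* (1.55). *Fgf2* rested on few reads. Its call ended in 9 of the 10 fits that left out 1 VAS library, with a pseudocount of 4 and on values corrected for transcript length. *Gfap*, the marker of Müller gliosis, was at 2303 and 1856 (-0.31, adjusted p = 0.371).
Macrophage and microglia genes did not rise together. Of 21 tested, 1 was called higher and 6 lower (4 higher and 8 lower in the 10-library fit). *Cx3cr1*, the fractalkine receptor of microglia, had 224, 172, 263, 203 and 235 in VAS WT and 59.9, 43.9, 45.8, 46.5 and 51.5 in VAS *Stra6-/-* (-2.12, adjusted p = 9.68e-06), and *P2ry12* (-1.16), *Tmem119* (-0.59) and *Aif1* (-0.93) were lower, whereas *Cd14*, a coreceptor for bacterial products, was higher (from 116 to 612, 2.40). The pan-macrophage genes *C1qa* (-0.13), *Adgre1* (0.15) and *Cd68* (0.091) were not called. Of 18 interferon response genes 5 were called lower and none higher (1 higher and 9 lower in the 10-library fit), with *Mx2* at -0.89 and *Irf7* at -0.51. Of 17 complement genes *C4b* (0.42) was the 1 called higher and *C3ar1* (-0.60) the 1 called lower, against 4 higher and 3 lower in the 10-library fit.

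Among 25 RPE genes the median was near the background (0.033 against 0.017 for all genes). The calls leaned lower, with 2 RPE genes higher and 6 lower, against 15.9% and 10.8% of all genes tested. Lower were *Bmp4* (from 1340.3 to 753, -0.83), the lineage factor *Otx2* with 2793, 2689.9, 2633, 2540.4 and 2534 in VAS WT and 1640.5, 1614, 1858, 1633 and 1605 in VAS *Stra6-/-* (-0.66, adjusted p = 2.11e-06), the lactate carrier *Slc16a8* (from 7401 to 4896, -0.60), *Rdh5*, *Vegfa* (-0.36) and *Rrh*. Higher were *Ezr*, which builds the apical microvilli (0.88), and the integrin gene *Itgav* (0.53). *Best1* (29.1 and 34.2) and *Rlbp1* (10488 and 9978) overlapped between the groups. In the 10-library fit this lean was absent, with 8 called higher and 7 lower.
Melanosome genes were called higher in 4 of 15 cases and lower in 1 (median 0.48), with *Oca2* (from 569 to 969, 0.78) and *Tyrp1* (from 10544 to 16953, 0.69, adjusted p = 0.0296) among the higher. The counts were 13 higher and 1 lower in the 10-library fit. Their summed level was 72457 to 77448 in VAS WT and 100242 to 105266 in VAS *Stra6-/-*. The call of *Tyrp1* ended in 9 of the 10 fits that left out 1 VAS library. Of 12 genes for the uptake of outer segments 4 were called higher and none lower (8 higher and 1 lower in the 10-library fit), all 4 by 0.53 or less, and the receptor *Mertk* was at 459.7 and 517 (adjusted p = 0.384).
Of 23 RPE transporter and channel genes 4 were called higher and 6 lower (10 higher and 8 lower in the 10-library fit), from the taurine carrier *Slc6a6* (from 7542 to 15846, 1.07) to the anion exchanger *Slc4a3* (from 1846 to 1003, -0.88). Tight and adherens junction genes went in both directions. The claudin of the RPE, *Cldn19* (from 302 to 164, -0.90), that of vessels, *Cldn5* (from 1849.8 to 835, -1.16), and *Cldn10* (-0.72) were the 3 called lower of 25. *Cldn1* (0.97), *Cldn4* (0.95) and *Cdh1* (0.71), known from surface epithelia, and the scaffold gene *Tjp1* (0.67) were among the 9 called higher. The 10-library fit called 14 higher and 5 lower.

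Several lists of stratified surface epithelium were higher, although the label names RPE-choroid. Of 9 hemidesmosome genes, whose products anchor basal cells to their matrix, 8 were called higher and none lower (9 and none in the 10-library fit), with a median of 1.12. *Itga6* had 2389, 2209, 2392, 2401 and 2089 in VAS WT and 6694, 6719.5, 6914, 6441 and 6588 in VAS *Stra6-/-* (1.54, adjusted p = 1.82e-10), and *Col17a1* (1.41) and the laminin chain *Lama3* (1.25) rose as well. Of 13 desmosome genes 10 were called higher and none lower (11 and none in the 10-library fit, median 0.93), *Dsg1b* from 242 to 983 (2.04), *Dsg3* from 1727 to 6951 (2.01) and desmoplakin, *Dsp*, from 15666 to 40998 (1.39). On values corrected for transcript length the 2 medians were 0.92 and 0.79.
Of 25 genes of stratified squamous epithelium 11 were called higher and 3 lower (17 higher and 3 lower in the 10-library fit, median 0.62). *Sprr1a*, a precursor of the cornified envelope, went from 284 to 1749 (2.63), *Krt16*, a keratin of activated keratinocytes, from 974 to 6259 (2.69, adjusted p = 2.4e-08), *Cnfn* from 26.2 to 308 (4.25) and the surface protein gene *Ly6d* rose by 1.66. *Krt6a* went from 51792 to 94583 (0.87), and its reads may be shared with *Krt6b*. *Sprr1b* had no read in VAS WT and 98.5, 98.8, 91.5, 97.97 and 113 in VAS *Stra6-/-*, at least 34.9-fold higher against a floor of 3 reads per library. Other keratins fell, namely *Krt4* (from 41282 to 21467, -0.94), *Krt13* (-0.46), *Krt15* (-0.48) and the mucosal *Krt19* (from 13612 to 6063, -1.16) and *Krt7* (-0.62).
Of 12 corneal epithelium genes 4 were called higher, *Trp63* (0.85), *Klf5* (0.83), *Ehf* (0.83) and *Krt14* (0.62), and none lower. The corneal keratin *Krt12* had 157795, 172162, 157376, 194875 and 142834 in VAS WT and 275953, 271708, 278386, 278383 and 283743 in VAS *Stra6-/-*, with no overlap between the groups and adjusted p = 0.0705, or adjusted p = 5.74e-09 in the 10-library fit, in which 10 of the 12 genes were called higher and 1 lower. *Aldh3a1*, a corneal enzyme, was at 122670.0 and 178957 (adjusted p = 0.113). The sums of the 12 genes ran from 519164 to 657434 in VAS WT and from 839030.0 to 874641 in VAS *Stra6-/-*. The front of the eye and connective tissue were removed by the stated methods, and the part of surface tissue left over in the epithelial differences was not tested. Of 20 genes of ocular surface mucosa and glands 3 were called higher and 3 lower (7 higher and 6 lower in the 10-library fit). The proline-rich protein gene *Prb1* had 85.4, 51.9, 88.5, 79.02 and 93.7 in VAS WT and 1537, 1694, 1864, 1721 and 1731 in VAS *Stra6-/-* (4.43, adjusted p = 0.000207), the water channel *Aqp5* went from 26823 to 51714 (0.95), and lactoferrin, *Ltf*, fell from 850.2 to 371 (-1.19).

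**Figure D4:**
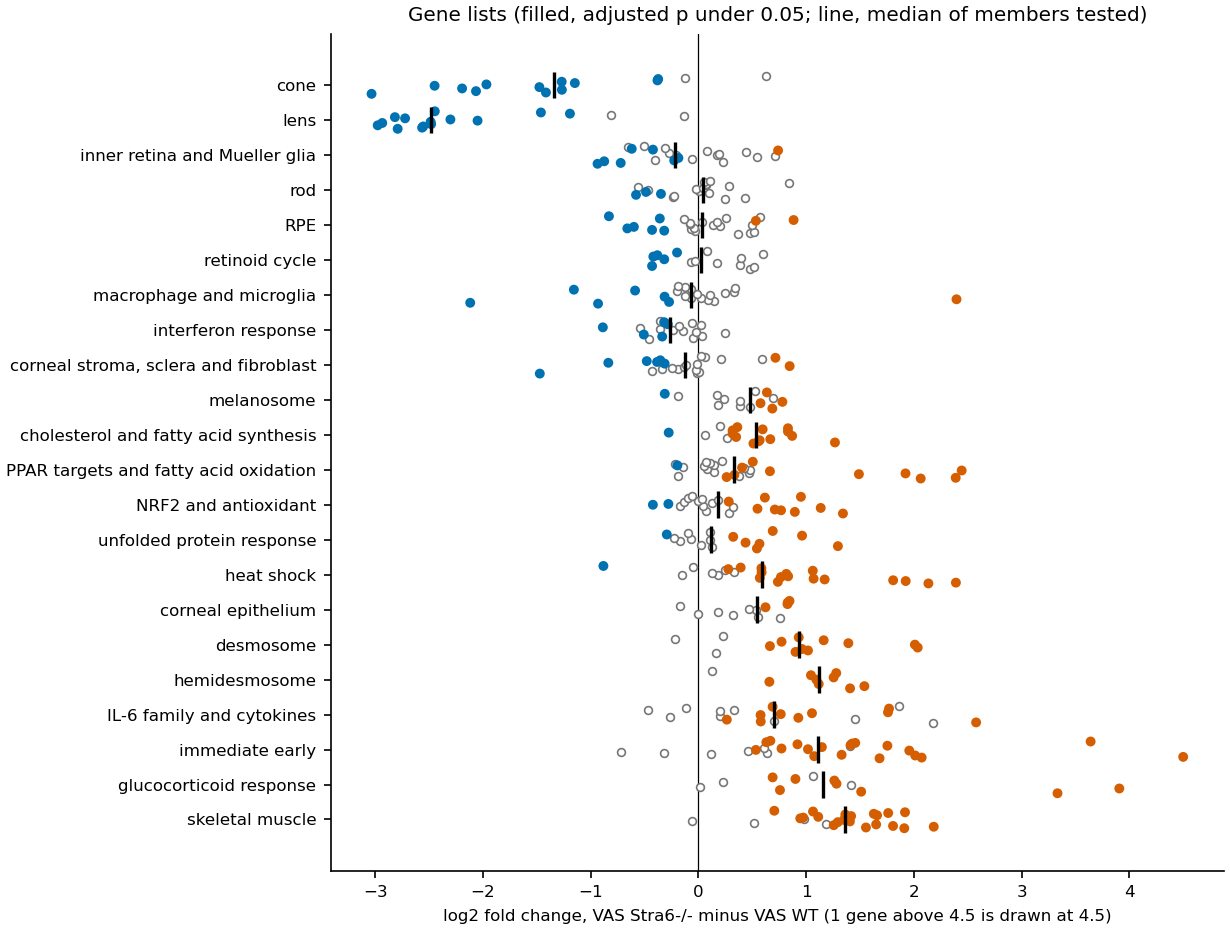
Each point is the log2 fold change of 1 member of a gene list, filled where it passed the test, orange where higher and blue where lower in VAS *Stra6-/-*, and the black line is the median of all members tested. A few members are not drawn, and *Fosl1* at 7.32 is drawn at the right edge. Cone and lens medians lie at -1.34 and -2.48, and that of skeletal muscle at 1.36.

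Skeletal muscle genes were higher in 20 of 24 cases and lower in none (22 and none in the 10-library fit), with a median of 1.36. Skeletal actin, *Acta1*, had 1424, 1486, 1438, 1336 and 1653 in VAS WT and 5375, 5539, 5293, 5914 and 5432 in VAS *Stra6-/-* (1.91, adjusted p = 0.00203), creatine kinase *Ckm* went from 2693 to 5827 (1.11), the Z-disc gene *Myot* from 50.2 to 192 (1.92) and the developmental myosin *Myh3* from 517 to 1799.5 (1.81). Of 7 myosin heavy chain genes 5 were called higher, between 1.26 for *Myh4* and 2.18 for *Myh2*. The slow troponin *Tnnt1* was at 302 and 286 (-0.063). The sum of the 24 genes was 18853 to 22952 in VAS WT and 48452 to 53752 in VAS *Stra6-/-*. Although the methods name the removal of muscle, RNA of muscle genes was present in both groups, and the part of carried-over muscle in the difference was not tested.
Other tissue lists went in both directions. Of 9 erythrocyte genes none was called by limma with all 20 libraries, although the median was 1.47, and 8 were called higher in the 10-library fit (*Alas2* 104 and 243, adjusted p = 1.09e-05). Of 22 genes of corneal stroma, sclera and fibroblasts 2 were called higher and 6 lower (4 higher and 11 lower in the 10-library fit), the lower ones led by the corneal proteoglycan *Kera* (from 623 to 226, -1.47) and *Col5a1* (-0.84), while *Angptl7* was higher (0.85) and *Lum* was at 2455 and 2433. Of 17 tendon and cartilage genes 5 were called lower and none higher (3 higher and 5 lower in the 10-library fit), *Col2a1* (-0.98) first. Among 16 endothelial genes 3 were called lower and none higher (4 higher and 5 lower in the 10-library fit), namely *Egfl7* (from 1593 to 707, -1.17), *Cldn5* and *Tek* (-0.52), while *Pecam1* (0.24) and *Cdh5* (0.38) were not called. Of 12 mural cell genes the contractile *Acta2* (-0.63) and *Tagln* (-0.70), *Cnn1* and *Pdgfrb* (-0.76) were lower and *Notch3* (1.08) was higher (5 higher and 5 lower in the 10-library fit). Of 10 Schwann cell and melanocyte genes 2 were called higher and 3 lower (4 higher and 3 lower in the 10-library fit). Of 5 myelin genes 3 were called lower and 1 higher, with log2 fold changes from -1.59 to 0.45. Among them *Mbp* (from 5441 to 3229, -0.75, adjusted p = 0.0355, limma) was lower, a call that ended with any 1 of the 10 VAS libraries left out. The receptor gene *Ngfr* (0.77) was higher and *Sox10* (0.037) was not called. Of 12 proliferation genes 3 were called higher and 1 lower (3 higher and 6 lower in the 10-library fit). Their log2 fold changes ran from -0.98 to 0.70, with a median of -0.34 and 9 of the 12 below 0. *Mcm2* stood at 0.70, *Ccna2* at -0.80 and *Mki67* at 725 and 596 (adjusted p = 0.682, limma). Of 21 genes of glycolysis and hypoxia 3 were called higher, led by *Adm* (from 63.98 to 200.1, 1.67) and *Hk2* (from 847 to 2082, 1.30), and 2 lower (11 higher and 3 lower in the 10-library fit). *Hk2* was not called with any 1 of the 10 VAS libraries left out. Of 22 matrix remodelling genes fibronectin, *Fn1* (0.78), was called higher and *Loxl1* (-0.62) and *Loxl4* (-0.77) lower (9 higher and 3 lower in the 10-library fit).

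By size of change alone, the 15 autosomal genes that rose most among those that reached 10 CPM in a group and did not overlap were *Fosl1*, *Prb1*, *Cnfn*, *Prpmp5*, *Zbtb16*, *Cdsn*, *Arc*, *Fkbp5*, *Plaur*, *Serpine3*, *Prrg4*, *Zbed6*, *E2f7*, *Krt16* and *Pthlh*. Several belong to keratinizing epithelium, such as corneodesmosin, *Cdsn* (from 16.4 to 211, 3.71), and the urokinase receptor *Plaur* (from 46.9 to 445, 3.22) and parathyroid hormone-like hormone, *Pthlh* (from 91.5 to 581, 2.69), are known from activated keratinocytes. The counts of *Prb1* and *Prpmp5* may share reads with related genes of their cluster, and *Zbed6* lies inside an intron of another gene. The 15 that fell most were *Eno1b*, 7 crystallin genes (*Cryba2*, *Crybb1*, *Cryaa*, *Crygs*, *Cryba1*, *Crybb2* and *Cryba4*), *Jchain*, *Opn1sw*, *Cyp26a1*, *Cx3cr1*, *Pde6h*, *Crybb3* and *Stra6*. *Jchain*, which joins antibodies of plasma cells, went from 216 to 39.3 (-2.44, adjusted p = 2.38e-09). *Eno1b* is a copy of *Eno1* and its reads may be shared, with values of 5342, 5864, 7042, 5647 and 8278 in VAS WT and 659, 87.8, 61.01, 3839 and 293 in VAS *Stra6-/-*, the high value of replicate 4 in VAS *Stra6-/-* lying nearest to the lowest WT library. Without VAS *Stra6-/-* replicate 2 or 3 it was not called (adjusted p = 0.0511 and 0.0571).
On the sex chromosomes, *Ddx3y*, *Eif2s3y*, *Kdm5d* and *Uty* fell most and *Xist* rose most, and for *Ddx3y* the fall was at least 376-fold against a floor of 3 reads per library. X-linked genes known to escape inactivation were higher, *Ddx3x* (1.36), *Kdm5c* (1.15), *Kdm6a* (1.06) and *Eif2s3x* (1.02), 6 of 7 of that list being called (7 in the 10-library fit), as were *Prkx* (1.34) and *Tbl1x* (1.30). Of 677 X-linked genes 10.9% were called higher and 7.83% lower, and of 18061 autosomal genes 16.1% and 10.9%. Of the cone genes named above, *Arr3* and *Opn1mw* are X-linked.

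By the difference between the mean values, which favours long and abundant transcripts, the 10 largest were *Rn45s*, *Krt12*, *Krt5*, *Aldh3a1*, *Krt6a*, *Krt15*, *Hspa1b*, *Gsto1*, *Dsp* and *Aqp5*. *Rn45s*, the ribosomal RNA precursor, had 225502, 348063, 413533, 194111 and 150328 in VAS WT and 106223, 89399, 69871, 40823 and 30866 in VAS *Stra6-/-* (-2.03, adjusted p = 0.00257), so the libraries differed in how much ribosomal RNA they held. They differed as well in how values followed transcript length. Across 13054 genes with a mean value of at least 50, which share the same libraries and are not independent, the log2 fold change rose with the length of the longest mRNA (Spearman's rho 0.344). When these genes were split into 5 equal groups by length, 5.71% of the shortest (up to 1822 bases) and 39.2% of the longest (from 5190 bases) were called higher, and 20.1% and 7.70% lower. In single libraries the deviation from the gene's mean correlated with length at -0.355 to -0.165 in VAS WT and at 0.233 to 0.388 in VAS *Stra6-/-*. With the length trend removed from each library, 4477 genes were called, and the medians moved from -1.34 to -1.28 for cone, from -2.48 to -2.27 for lens, from 0.59 to 0.66 for heat shock and from 1.11 to 1.22 for immediate early genes. RNA quality values of the samples are not given in the sources used here, and the part of the length trend in the differences of single long or short genes was not tested.

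**Figure D5:**
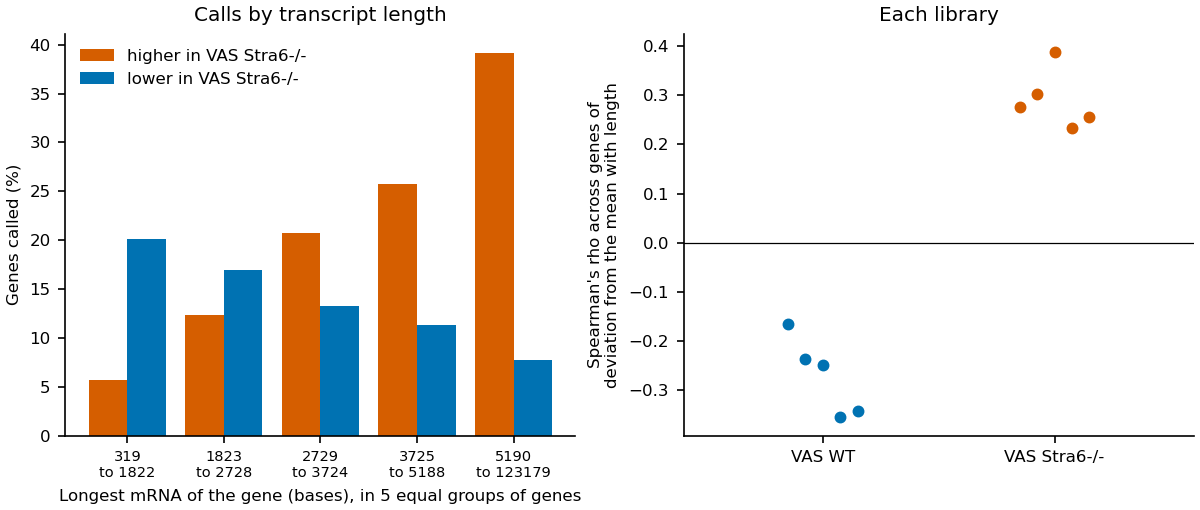
Bars give the share of genes called higher (orange) or lower (blue) in VAS *Stra6-/-*, in percent, for 5 equal groups of genes by the length of the longest mRNA in bases. Points give, for each library, Spearman's rho across 13054 genes between the deviation from the gene's mean log2 value and length; the VAS WT libraries lie below 0 and the VAS *Stra6-/-* libraries above it.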

How the data were processed

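RNA of the RPE-choroid was isolated with TRIzol and RNeasy columns, and poly(A) libraries were read as pairs of 150 bases on a NovaSeq. Per the labels and the methods of the study, the authors aligned reads with STAR 2.5.3a to GRCm38 (mm10), counted genes with RSEM 1.2.30 and normalized with DESeq2 1.32.0. The deposited signal is each gene's count divided by the size factor of its library, for 24411 genes. Whether counting used strand is not given in the sources used here.

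Whole reads were recovered from the deposited values (100% whole in the 10 VAS libraries, within 0.01 reads). They gave 13331903 to 21878614 reads counted on genes per library over all 20. Genes with at least 5 reads in all were tested with limma 3.58.1 (R 4.3.3) on log2(value + 1), as 4 group means over 20 libraries with a trended prior, and Benjamini-Hochberg adjustment over 18807 genes. Fold changes on this scale understate the change of low genes. Alternatives used edgeR 4.0.16 and DESeq2 1.42.0 on recovered reads, other pseudocounts, filters and scalings, left-out libraries, and a correction of each library for transcript length over genes with a mean of at least 50, added after the data had been seen. On simulated counts limma recovered 200 of 200 changed genes with 15 false calls, and edgeR 200 of 200 with 13. The simulation gave all genes and groups the same spread and no length trend. It therefore did not test the steps under the unequal spreads and the length trend of these data. Replicates of the VAS groups differed by more than sampling noise (chi-square per gene 3.39 to 16.5), so none was merged. The p-values of the main fit rest on a spread between libraries within groups that all 4 groups share, the VAD libraries included.

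Members and gene lists were chosen with earlier results of these data known. Named are *Stra6*, 8 genes the study points to, the 15 largest changes per direction among called genes that reached 10 CPM in a group and did not overlap (X and Y apart), the 10 largest differences of means, and list members by size of change or because they define a list. Positions come from GENCODE vM21 (23363 genes matched) and RefSeq (948), with 100 unmatched. A few listed genes are not reported singly.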

Additional observations from a re-analysis of the deposited data

Results flagged for a closer look

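Among the genes named in the text, 42 of 485 groups of 5 libraries whose values were not all equal held a library whose normalized value lay apart from the other 4 by more than Dixon's 95% critical value. Chance gives this in about 1 of 20 groups. VAS *Stra6-/-* replicate 1 had *Cldn10* at 182 (the others 123 to 138), *Ddx3y* at 1.02 (the others 0), *Gnb3* at 822 (the others 729 to 753) and *Lrat* at 2774 (the others 2481 to 2550.4) above the rest. VAS *Stra6-/-* replicate 2 had *Eif2s3y* at 4.39 (the others 0 to 1.02) above the rest, and *Mip* at 29.6 (the others 43.1 to 47.8) below the rest. VAS *Stra6-/-* replicate 3 had *Dsg3* at 7504 (the others 6770.2 to 6889), *Egr1* at 5316 (the others 4734 to 4882), *Lama3* at 2854 (the others 2319 to 2467), *Mertk* at 605 (the others 489 to 505), *Otx2* at 1858 (the others 1605 to 1640.5) and *Zbed6* at 869 (the others 629 to 680.4) above the rest. VAS *Stra6-/-* replicate 4 had *Dbp* at 3836 (the others 3431 to 3529.8), *Eno1b* at 3839 (the others 61.01 to 659), *Grm6* at 464 (the others 414 to 428), *Hsf1* at 637 (the others 579 to 584) and *Stat3* at 4346 (the others 3985 to 4068) above the rest. VAS *Stra6-/-* replicate 5 had *Fgf2* at 10.3 (the others 3.05 to 5.08) and *Sprr1a* at 1852 (the others 1709.8 to 1742) above the rest. VAS WT replicate 1 had *Fgf2* at 1.96 (the others 0), *Fosl1* at 5.89 (the others 0), *Gclc* at 844 (the others 706 to 735) and *Hmox1* at 241 (the others 183 to 196) above the rest, and *Ddit3* at 705 (the others 811 to 839), *Ly6d* at 14.7 (the others 21.4 to 23.4) and *Myot* at 37.3 (the others 51.7 to 56.4) below the rest. VAS WT replicate 2 had *Acadl* at 2209 (the others 1834 to 1937) above the rest, and *Aldh1a3* at 1539 (the others 1736 to 1776) below the rest. VAS WT replicate 3 had *Hsf2* at 480.5 (the others 328 to 359) above the rest. VAS WT replicate 4 had *Angptl7* at 617 (the others 458 to 496), *Aqp5* at 32164 (the others 25104 to 26514), *Npas2* at 242 (the others 196 to 206) and *Ucp3* at 98.5 (the others 37.3 to 53.8) above the rest, and *Bmp4* at 1185 (the others 1357 to 1416), *Cngb1* at 2740.4 (the others 3130.4 to 3261), *Cryaa* at 3217 (the others 3591 to 3699) and *Rdh5* at 8958 (the others 10216 to 10542) below the rest. VAS WT replicate 5 had *Atf3* at 235 (the others 205 to 213), *Il6* at 12.5 (the others 0), *Myh4* at 2393 (the others 1898 to 2004) and *Rarb* at 430.2 (the others 329 to 351) above the rest, and *Klf5* at 780.2 (the others 926 to 974) below the rest.

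The genotype difference on the VAS diet was also set against that on the VAD diet, by the interaction term of the limma model over all 20 libraries. For *Stra6* the log2 fold change was -2.04 on VAS and 1.23 on VAD, a difference of -3.27 (adjusted p = 6.76e-10, limma). For *Cnga3* the log2 fold change was -3.04 on VAS and -5.14 on VAD, a difference of 2.11 (adjusted p = 0.0322, limma). For *Pde6h* the log2 fold change was -2.07 on VAS and -5.15 on VAD, a difference of 3.09 (adjusted p = 4.85e-07, limma). For *Opn1sw* the log2 fold change was -2.19 on VAS and -4.59 on VAD, a difference of 2.39 (adjusted p = 0.000418, limma). For *Arr3* the log2 fold change was -2.45 on VAS and -7.43 on VAD, a difference of 4.98 (adjusted p = 4.76e-06, limma). For *Hspa1a* the log2 fold change was 2.13 on VAS and -2.18 on VAD, a difference of 4.31 (adjusted p = 1.83e-18, limma). For *Hspa1b* the log2 fold change was 2.39 on VAS and -3.64 on VAD, a difference of 6.03 (adjusted p = 1.83e-18, limma). For *Il6ra* the log2 fold change was 2.58 on VAS and -0.24 on VAD, a difference of 2.81 (adjusted p = 0.000113, limma). For *Angptl4*, at 2.06 and 1.64, the difference of 0.43 did not pass the test (adjusted p = 0.219). The libraries labelled VAD *Stra6-/-* held more *Stra6* than those labelled VAD WT and held *Xist* and *Ddx3y* together, so the VAD values are differences between the libraries labelled in this way.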

How the results depend on the processing

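Pseudocounts of 0.5 and 4, TMM scaling, the 2 other filters and the replicate block gave 4820 to 5126 called genes, and no alternative turned the direction of a called gene named in the text. A pseudocount of 4 ended the call of *Fgf2* (adjusted p = 0.0858, limma), one of 0.5 that of *Plin5* (0.0571), and edgeR and DESeq2 that of *Rbp7* (0.101 and 0.0645). A fit of the 10 VAS libraries alone called 8444 genes (4663 higher, 3781 lower), edgeR on the recovered reads of these libraries 8549 (4242 lower) and DESeq2 8607 (4265 lower). Of the named genes not called before, 23, 22 and 23 were called in these 3 fits. With a pseudocount of 4, 71 genes lay above a log2 fold change of 2 and 36 below -2. Below -2 edgeR placed 122 genes and DESeq2 102, and at a threshold of 1 there were 621 genes higher and 305 lower. TMM scaling moved the median of all genes from 0.017 to 0 and gave 2780 genes higher and 2241 lower. Leaving out 1 library at a time gave 4282 to 4547 called genes (2627 to 2763 higher, 1653 to 1784 lower), with 129 to 155 above 2 and 58 to 69 below -2. The log2 fold changes then ran from -2.08 to -2.003 for *Stra6*, -3.44 to -2.65 for *Cnga3*, -2.09 to -2.04 for *Pde6h*, -2.24 to -2.13 for *Opn1sw*, -2.50 to -2.40 for *Arr3*, 2.10 to 2.16 for *Hspa1a*, 2.36 to 2.42 for *Hspa1b*, 2.001 to 2.13 for *Angptl4* and 2.26 to 2.78 for *Il6ra*, all of them called each time.

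Calls of other named genes that ended when 1 of the 10 libraries was left out were, with the number of left-out libraries that ended them and the largest adjusted p by limma, *Acadvl* (5, 0.0767 without VAS *Stra6-/-* replicate 3), *Aif1* (4, 0.0601 without VAS *Stra6-/-* replicate 4), *Angptl7* (7, 0.0636 without VAS WT replicate 5), *Aqp5* (1, 0.0508 without VAS WT replicate 5), *C3ar1* (2, 0.0546 without VAS WT replicate 3), *Crabp1* (8, 0.0932 without VAS *Stra6-/-* replicate 2), *Dhrs3* (6, 0.0697 without VAS *Stra6-/-* replicate 1), *Eno1b* (2, 0.0571 without VAS *Stra6-/-* replicate 3), *Fgf2* (9, 0.109 without VAS *Stra6-/-* replicate 5), *Hk2* (10, 0.0725 without VAS WT replicate 4), *Irf7* (3, 0.0661 without VAS *Stra6-/-* replicate 3), *Kcnv2* (9, 0.0957 without VAS WT replicate 3), *Krt13* (8, 0.0682 without VAS WT replicate 2), *Krt15* (1, 0.0517 without VAS *Stra6-/-* replicate 3), *Loxl1* (9, 0.0774 without VAS *Stra6-/-* replicate 3), *Lrp1* (9, 0.0764 without VAS WT replicate 4), *Mbp* (10, 0.0752 without VAS WT replicate 4), *Mx2* (3, 0.0618 without VAS WT replicate 4), *Plin5* (7, 0.122 without VAS WT replicate 5), *Rarg* (2, 0.0561 without VAS WT replicate 3), *Rbp7* (7, 0.123 without VAS WT replicate 4), *Rrh* (7, 0.085 without VAS WT replicate 3), *Serpine3* (2, 0.0512 without VAS WT replicate 2), *Tek* (2, 0.0633 without VAS WT replicate 5), *Tmem119* (5, 0.0668 without VAS WT replicate 4), *Tyrp1* (9, 0.0636 without VAS WT replicate 2) and *Zbed6* (4, 0.0587 without VAS *Stra6-/-* replicate 3), while *Il6* was called in 2 of these 10 fits, at 0.0077 without VAS WT replicate 5. Values corrected for transcript length gave 4477 called genes and ended the calls of *Acadvl*, *Aif1*, *Crabp1*, *Ddit3*, *Dhrs3*, *Fgf2*, *Gngt1*, *Gpx4*, *Guca1a*, *Lrp1*, *Rdh12*, *Rdh5*, *Rrh*, *Sod1* and *Tmem119*. The replicate numbers did not pair the samples (correlations of -0.019 to 0.0228, and 2 of 5 numbers best with their own), and the fit with the number as a block called 4820 genes and ended the calls of *Dhrs3*, *Fgf2*, *Kcnv2* and *Rbp7*. The cause was not tested. Depth limits genes with few reads, such as *Cnga3*, *Il6* and *Fgf2*.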
